A study of Mus musculus with 4 samples.

Results

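Matrix metalloproteinases (MMPs) are secreted or membrane-bound proteases that use zinc to cut the proteins of the extracellular matrix. They are made as inactive precursors, and the tissue inhibitors of metalloproteinases (TIMPs) block the active enzymes. In the lung airspaces macrophages and neutrophils are known sources of several of them, and the balance of proteases and inhibitors bears on elastin and collagen turnover. The genes examined here were Mmp3, Mmp8, Mmp9, Mmp12, Mmp13, Mmp14, Mmp19, Mmp27, Timp2 and Timp3, 10 of the 20923 protein-coding genes of the annotation. A SMAD4 peak was placed at a gene when its summit, the position of highest fragment density, lay in the gene body or within 50 kb of a transcription start site (TSS) of the gene. By this rule 48 of the 35384 peaks lay at the 10 genes, 21 of 16369 in replicate 1 and 27 of 19015 in replicate 2.

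SMAD4 is the common partner of the SMAD proteins that TGFβ receptors activate, and the study asked where it binds in alveolar macrophages (AMs), which live in the airspaces and clear surfactant and particles. AMs of wild-type C57BL/6J mice, 9 weeks old per the study's methods, were collected by bronchoalveolar lavage and sorted, and SMAD4-bound chromatin was tagged by Tn5 on the beads and sequenced (HT-ChIPmentation). There were 2 SMAD4 libraries and 2 input libraries without antibody, and all shared this cell type and genotype, with no treatment labelled. The labels do not say whether the replicates came from separate animals. With no second condition no contrast between conditions could be tested, and the values of the 2 libraries are set side by side.

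No values of the input libraries themselves were used, since they served the peak caller as control. Summits rested on a median of 17 fragments in replicate 1 and 14 in replicate 2, and the usual control level was 2.08 and 1.22 fragments. All 10 alveolar macrophage markers examined (among them Siglecf, Pparg and Marco) had a shared region by the same rule, as did 3 of 9 markers of other lung cells (Scgb1a1, Pdpn and Acta2), where 39.1% of protein-coding genes had one. Binding near a gene is not its expression, so these counts only describe the peak lists. A shared region is the merged interval of peaks of both replicates that overlap by at least 1 bp.

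The 10 genes differed in how much SMAD4 binding lay around them. Shared regions were found at 8 of the 10 genes, compared with 39.1% of all protein-coding genes, and numbered 18 of the 10964 in the genome. The 10 genes were chosen with earlier results of these data known, so their counts beside those of all genes are a description only. Of 15 other Mmp genes 3 had a shared region. The genes without one, Mmp3 and Timp3, had no peak in either list. Mmp8 and Mmp27 had 5 shared regions each, the same 5, because the genes are neighbours and their windows overlap. Mmp14 had 4, Mmp19 had 3, Mmp12 and Mmp9 had 2 each, and Mmp13 and Timp2 had 1 each. Of all protein-coding genes 3.33% had 5 or more, 5.85% had 4 or more, 10.3% had 3 or more and 19.5% had 2 or more. Peaks of replicate 1 lay at 8 of the 10 genes, where 46.6% of protein-coding genes had one, and those of replicate 2 at the same 8, against 53.4%.

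**Figure D1:**
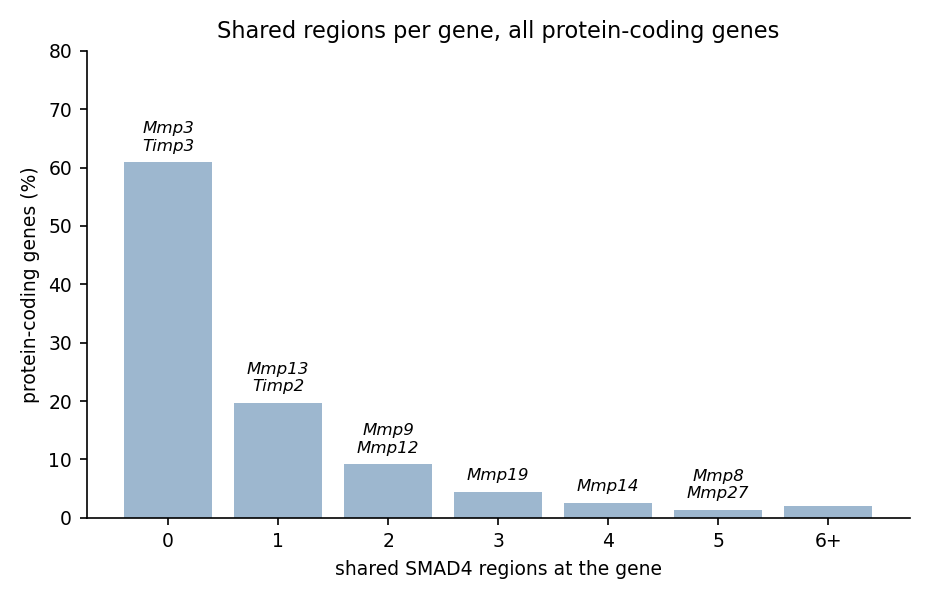
Percentage of the 20923 protein-coding genes (vertical axis) by the number of shared SMAD4 regions at the gene (horizontal axis), with the 10 genes named above the bar of their count. Mmp3 and Timp3 stand with the 60.9% of genes that had none, and Mmp8 and Mmp27 above the 1.36% with 5.

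A region within 50 kb of a gene can lie closer to another gene. Of the 18 regions, 13 had the TSS of 1 of the 10 genes as the nearest and 5 did not. At 7 of the 10 genes at least 1 shared region had that gene's TSS as its nearest, compared with 21.5% of protein-coding genes. Timp2 was the gene whose only region was nearest to another TSS. Only Mmp8 had a shared region in its promoter (1 kb upstream to 100 bp downstream of the TSS), 1 of 10 genes against 3.10% of protein-coding genes. Inside gene bodies shared regions were found at Mmp8, Mmp27 and Timp2.

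Mmp8 encodes neutrophil collagenase, which cuts fibrillar collagens. The gene lies on the plus strand of chromosome 9 from 7558429 to 7568486 (mm10, as all coordinates). Its window held the strongest region at any of the 10 genes, chr9:7567111-7567965, in exon 10, the last exon of Mmp8. The fold enrichment was 22.1 in replicate 1 and 37 in replicate 2, a mean of 29.6 ± 10.5 (SD, n = 2), with 67 and 81 fragments at the summits. In its own list it ranked 300 of 16369 and 220 of 19015, so that it was among the highest 2% of peaks of either replicate. The summits lay 10 bp apart, 9079 bp downstream of the Mmp8 TSS and 3888 bp upstream of the TSS of Mmp27, which is therefore the nearest. The summit window, from 100 bp before the mean summit to the last coding base of Mmp8, was chr9:7567408-7567538. It is shown because it carries the strongest signal at these genes, on the plus strand as all sequences here. Capitals mark short factor strings, such as TGTGGTC for RUNX, that were searched on both strands. This window held a RUNX string on the minus strand.
Mmp8 exon 10 region: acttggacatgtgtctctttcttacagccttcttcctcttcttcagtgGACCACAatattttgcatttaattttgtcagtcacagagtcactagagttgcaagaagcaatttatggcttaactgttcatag

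The promoter of Mmp8 carried a region at chr9:7558157-7558715 with folds of 10.7 and 18.6, from 32 and 52 fragments. The summits fell 10 bp downstream of the TSS in replicate 1 and 16 bp upstream in replicate 2. The local control level behind the replicate 2 peak was 1.85 fragments, above the usual level of that library. Another region, chr9:7556259-7556775, lay 1859 bp upstream of the TSS with folds of 10.7 and 12.6 from 35 and 29 fragments. In replicate 1 these neighbouring regions had equal folds to 3 digits, and in replicate 2 the promoter was the higher. The 250 bases before the TSS are shown because the promoter has a shared region, whose merged interval covers them. These bases hold a PU.1 string on the minus strand at 7558208 to 7558215, which is outside the 100 bp each side of the mean summit. A SMAD string, GTCTGG on the minus strand, lay past the TSS at 7558437 to 7558442, within the region.
Mmp8 promoter, chr9:7558179-7558428: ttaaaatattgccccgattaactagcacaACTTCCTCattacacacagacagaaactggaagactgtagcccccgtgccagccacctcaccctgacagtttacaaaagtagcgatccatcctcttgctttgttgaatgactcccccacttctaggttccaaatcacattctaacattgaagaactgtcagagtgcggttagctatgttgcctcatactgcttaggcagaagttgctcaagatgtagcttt

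Mmp27, separated from Mmp8 by 2909 bp, encodes a less studied member of the family. Besides the region at the end of Mmp8, it had shared regions in intron 2 (chr9:7572663-7572939, 1422 bp past its TSS) and in intron 5 (chr9:7577277-7577802, 6144 bp past it). The intron 5 region had folds of 8.77 and 16.2 from 26 and 35 fragments. The intron 2 region was weak, with folds of 5.52 and 4.96 from 16 and 10 fragments, and was 1 of only 2 regions at the 10 genes with the lower fold in replicate 2. Its summit window held an AP-1 string, TGACTCA, 14 bp from the mean of summits 73 bp apart, and the intron 5 window held none of the strings.

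**Figure D2:**
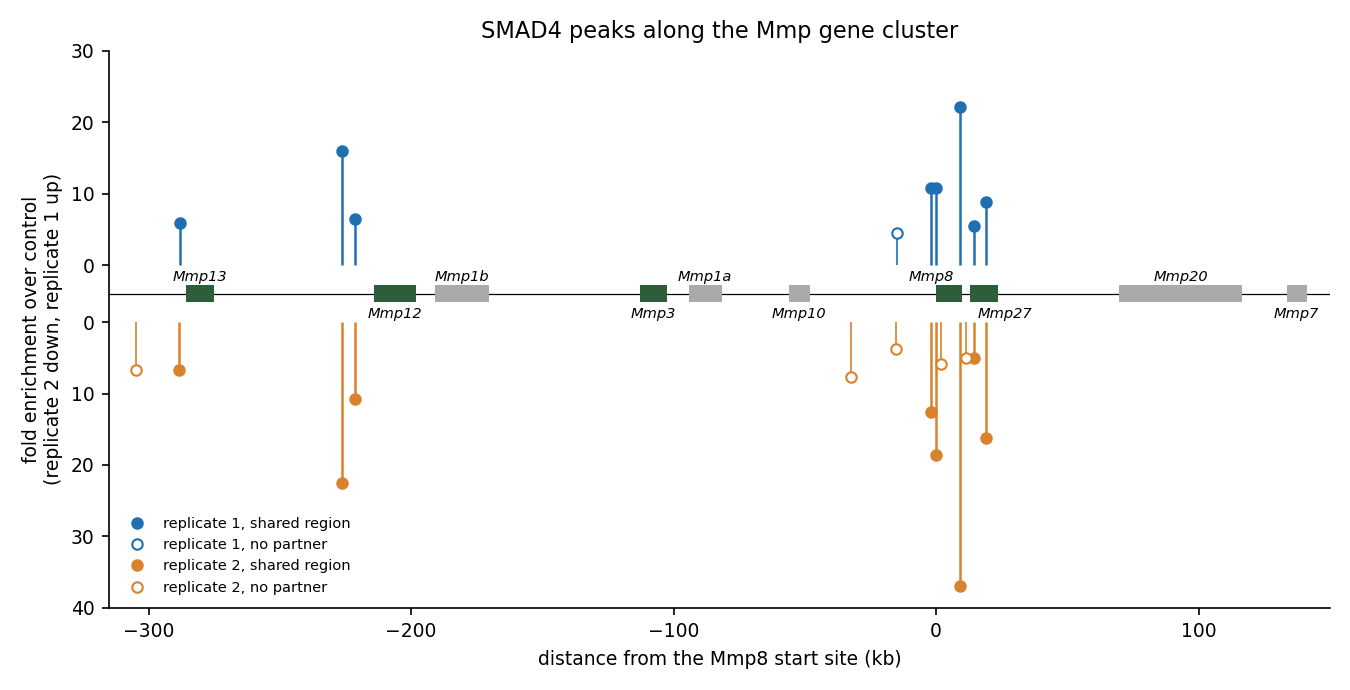
Fold enrichment over control of the SMAD4 peaks assigned to the genes of interest (vertical axis, replicate 1 upward and replicate 2 downward from separate zero lines) by distance from the Mmp8 TSS in kb (horizontal axis). Filled points belong to shared regions, open points have no partner, green boxes are genes of interest and grey boxes other Mmp genes. Peaks gather at Mmp8 and Mmp27 and before Mmp12 and Mmp13, and the stretches over Mmp3 and over Mmp20 and Mmp7 are empty.

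Mmp8, Mmp27, Mmp12, Mmp13 and Mmp3 belong to a cluster of 10 Mmp genes on chromosome 9. The cluster, taken from the first base of Mmp13 to the last base of Mmp7, spans 427 kb (7272514 to 7699585). It held 7 shared regions, or 1.64 per 100 kb, where chromosome 9 as a whole had 0.451, a ratio of 3.63. Replicate 1 had 2.11 peaks per 100 kb in the cluster and 0.618 on the chromosome, and replicate 2 had 2.58 and 0.766. Of the 7 regions, 5 fell in the 28.5 kb from 5 kb before Mmp8 to the end of Mmp27. The other 2 lay upstream of Mmp12. A stretch of 189 kb between neighbouring summits of either list, from 7337356 to 7526110, contained no summit and covered Mmp12, Mmp3, Mmp1b, Mmp1a and Mmp10 entirely. Another of 189 kb, from 7577548 to 7766399, covered Mmp20 and Mmp7. Binding in the cluster was thus in groups, with 7 of the 10 genes wholly in the empty stretches.

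Mmp12 encodes macrophage metalloelastase, the main elastin-cutting MMP of macrophages. Its body had no peak. Its strongest region, chr9:7331692-7332416, lay 12368 bp upstream of its first TSS, with folds of 15.9 and 22.6 (mean 19.2 ± 4.69, SD, n = 2) from 48 and 49 fragments. It ranked 828 and 1005 in the lists and was the second strongest at the 10 genes in both. A weaker region, chr9:7336718-7337523, lay 7262 bp upstream, with folds of 6.5 and 10.8 from 19 and 23 fragments. It joined 2 peaks of replicate 1 to 1 of replicate 2, and their strongest summits were 174 bp apart. The window of the stronger region, chr9:7331929-7332129, is shown, and it holds a CEBP string, TTGCACAA, 2 bp from the mean summit. The summits of the replicates were 110 bp apart there, so neither of them lay at the string.
Mmp12 upstream region: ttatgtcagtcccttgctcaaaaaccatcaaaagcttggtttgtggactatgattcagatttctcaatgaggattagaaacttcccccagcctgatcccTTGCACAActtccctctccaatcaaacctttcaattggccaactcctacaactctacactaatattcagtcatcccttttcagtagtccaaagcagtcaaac

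Mmp13 encodes another collagenase. Its 1 shared region, chr9:7270120-7270524, lay 2236 bp upstream of the TSS, with folds of 5.85 and 6.77 from 17 and 14 fragments. Both values were near the median fold of their lists (5.52 and 6.77), and the summits were 189 bp apart. Its window, chr9:7270178-7270378, held 1 SMAD string and shows such a string at a region of ordinary strength. Mmp3 encodes a stromelysin that cuts many matrix proteins and activates other MMP precursors. The peak nearest to the Mmp3 TSS in either list was 80288 bp away.
Mmp13 upstream region: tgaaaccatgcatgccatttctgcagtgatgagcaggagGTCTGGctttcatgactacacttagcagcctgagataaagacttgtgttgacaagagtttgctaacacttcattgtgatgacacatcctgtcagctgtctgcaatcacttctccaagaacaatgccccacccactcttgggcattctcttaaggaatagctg

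Mmp9, the gene of gelatinase B, which cuts denatured collagen and basement membrane collagen, lies on chromosome 2 from 164948219 to 164955850. Both of its shared regions were upstream, and the gene body had no peak. The stronger, chr2:164946880-164947208, was 1226 bp before the TSS, just beyond the limit set for a promoter, with folds of 6.5 and 10.5 from 19 and 24 fragments. The other, chr2:164942982-164943161, 5114 bp upstream, had nearly equal folds of 5.85 and 5.87 from 17 and 12 fragments. It was 180 bp wide, the narrowest of the 18. The window of the stronger region, chr2:164946893-164947093, held a SMAD 5GC string, and that of the weaker held a PU.1 and an ETS string.
Mmp9 upstream region: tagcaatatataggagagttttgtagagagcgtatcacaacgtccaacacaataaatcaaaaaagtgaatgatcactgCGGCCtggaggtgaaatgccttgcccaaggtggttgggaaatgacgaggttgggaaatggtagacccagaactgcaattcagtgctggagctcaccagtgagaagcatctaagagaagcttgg

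Mmp14 encodes a membrane-anchored MMP that cuts collagen at the cell surface and activates the precursor of MMP2. It lies on chromosome 14 from 54431598 to 54442456, among other genes. Of its 4 shared regions only chr14:54442510-54442951, just past the 3′ end of the gene, had the Mmp14 TSS as its nearest, at 11115 bp. Its folds were 6.26 and 10.5 from 20 and 24 fragments, and its summits were 169 bp apart. The remaining 3 were in promoters of other genes, 1 at Slc7a7 (folds 5.2 and 7.22) and 2 at Mrpl52 (4.55 and 5.41, and 6.5 and 5.87). None of the 4 regions lay in the body of Mmp14. The window of the downstream region, chr14:54442613-54442813, is shown as the strongest of the 4 by the smaller fold. A PU.1 string on the plus strand starts at its mean summit.
Mmp14 downstream region: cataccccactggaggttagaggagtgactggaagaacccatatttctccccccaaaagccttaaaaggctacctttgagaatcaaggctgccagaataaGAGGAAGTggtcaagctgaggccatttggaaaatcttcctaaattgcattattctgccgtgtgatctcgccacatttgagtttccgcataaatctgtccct

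Mmp19, whose enzyme cuts basement membrane components, lies on chromosome 10 from 128790910 to 128800827. A pair of adjacent shared regions was found upstream. The first, chr10:128779493-128779960, was 11136 bp from the TSS, with folds of 6.17 and 12.2 from 18 and 26 fragments. The second, chr10:128780002-128780621, was 10503 bp from it, with folds of 5.85 and 9.48 from 17 and 20 fragments. The folds of the first differed most between the replicates among the 18 regions, with a ratio of 1.97. The last region, at the promoter of Pym1, 43383 bp upstream of Mmp19, was the weakest of the 18 in replicate 1 (folds 4.22 and 4.96). The window of the first region, chr10:128779674-128779874, held a RUNX and a SMAD string. They lay 53 and 98 bp from the mean summit, with the SMAD string at the edge of the window. The summits of the replicates were 158 bp apart there.
Mmp19 upstream region: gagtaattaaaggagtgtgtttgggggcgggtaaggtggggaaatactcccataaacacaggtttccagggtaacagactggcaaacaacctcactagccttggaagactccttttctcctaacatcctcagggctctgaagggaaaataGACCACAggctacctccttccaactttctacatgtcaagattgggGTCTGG

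Timp2 and Timp3 encode inhibitors of the active enzymes, and TIMP2 also takes part in the activation of MMP2 by MMP14. Timp2 lies on the minus strand of chromosome 11 from 118301061 to 118355411. Its 1 shared region, chr11:118312046-118312598, was in intron 3, 43087 bp from its own TSS and 22080 bp from that of Usp36, the nearest. The folds were 6.77 and 7.71 from 27 and 21 fragments, with summits 10 bp apart. The control level there was 3.14 and 1.85 fragments, above the usual level in both libraries. Its window, chr11:118312224-118312424, held 3 different strings (SMAD 5GC, CEBP and RUNX), more than any other window at these genes. Timp3 lies on chromosome 10 from 86300412 to 86349505, and the peak nearest to its TSS was 237113 bp away.
Timp2 intron 3 region: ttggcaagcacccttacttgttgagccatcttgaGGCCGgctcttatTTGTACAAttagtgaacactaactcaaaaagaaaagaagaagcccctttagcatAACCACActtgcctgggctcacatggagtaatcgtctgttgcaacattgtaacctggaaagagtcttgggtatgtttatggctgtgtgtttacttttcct

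Across the 18 regions, folds ran from 4.22 to 22.1 in replicate 1 and from 4.96 to 37 in replicate 2. The medians were 6.38 and 9.97, beside 6.82 and 9.48 over all shared regions. By the smaller fold of the replicates, 2 of the 18 were among the highest 10% of shared regions (the Mmp8 exon 10 and the Mmp12 upstream region), and 12 were below the median of all shared regions. A few strong regions on chromosome 9 therefore stood beside many of ordinary strength. The largest q of a peak in the 18 regions, among the strongest of each replicate, was 0.000298 in replicate 1 and 5.85e-05 in replicate 2. Summits of the replicates were 5 to 199 bp apart, with a median of 69 bp, compared with 49 bp over all shared regions. Widths ranged from 180 to 855 bp around a median of 492.5 bp, and the median over all shared regions was 440 bp.

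**Figure D3:**
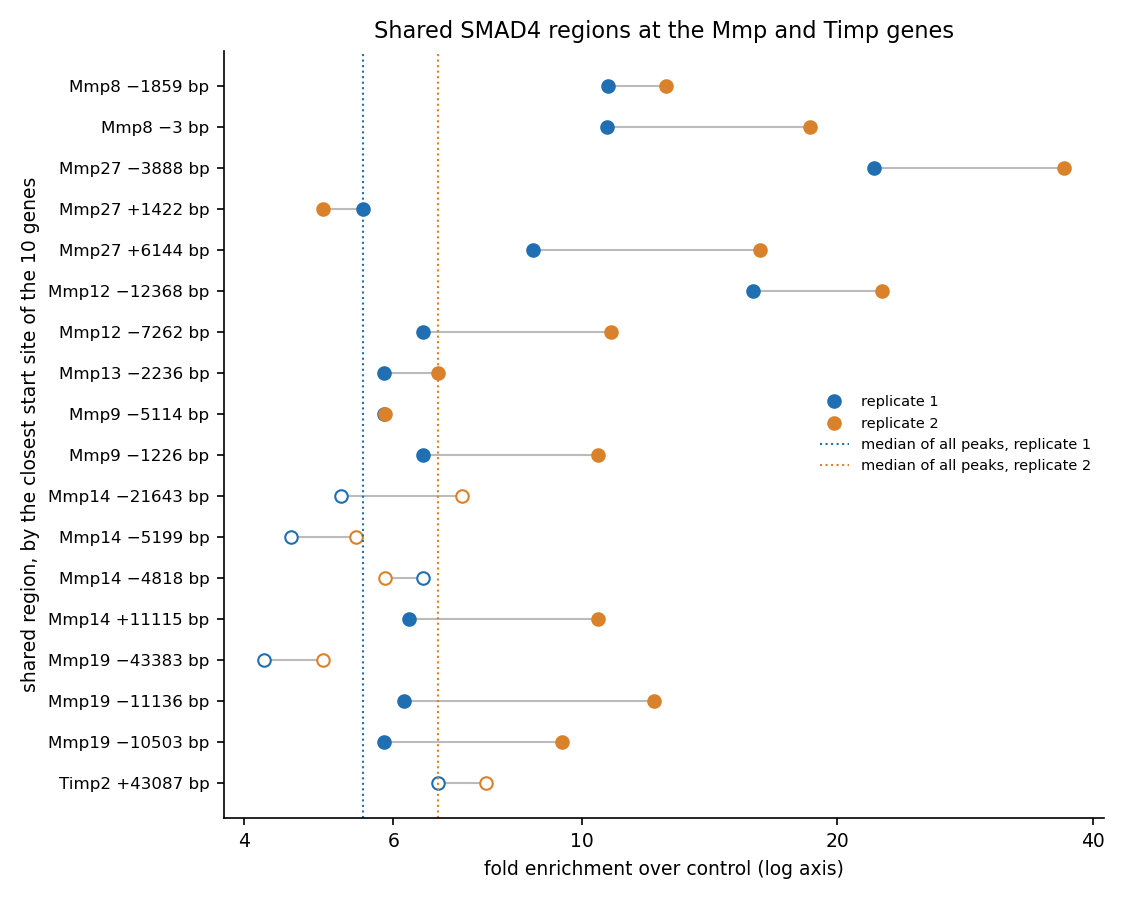
Fold enrichment over control (horizontal log axis) of the 18 shared regions in replicate 1 (blue) and replicate 2 (orange), 1 row per region, labelled by the closest TSS among the 10 genes and the signed distance from it. Open points are regions nearest to another gene's TSS and dotted lines the median of all peaks of a replicate. The Mmp27 −3888 bp row is the Mmp8 exon 10 region, the highest in both replicates.

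The fold was higher in replicate 2 in 16 of the 18 regions, which was the usual direction, since it held for 87.2% of all shared regions. Folds are taken over a control level that was usually 2.08 fragments in replicate 1 and 1.22 in replicate 2. Median fragments at the summits of the 18 were 19 and 22, and over all peaks 17 and 14. The part of the control level in this direction was not tested. The ratio of replicate 2 to replicate 1 ran from 0.898 to 1.97 with a median of 1.40, inside the 0.855 to 2.23 that spanned the central 90% of shared regions (median 1.39). Spearman's rho between the folds was 0.858 over the 18 regions and 0.782 over all 10964. The regions share their libraries and are not independent, so that rho is a description only.

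**Figure D4:**
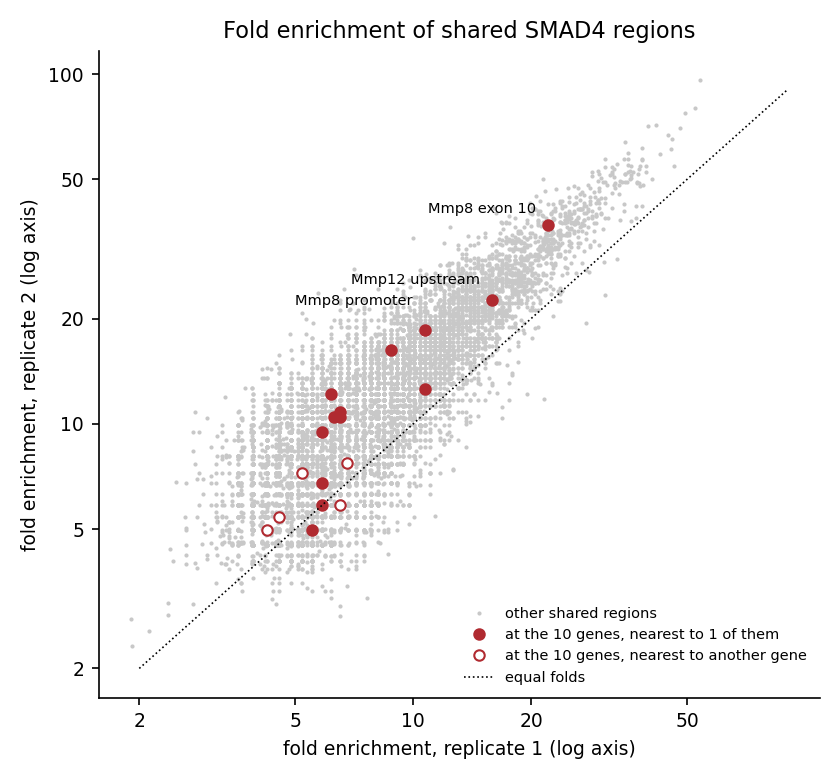
Fold enrichment in replicate 1 (horizontal log axis) and replicate 2 (vertical log axis) of the 10964 shared regions, with the 18 at the Mmp and Timp genes in red (open where another gene's TSS is nearest) and a dotted line of equal folds. The red points lie within the cloud of the other regions, 16 of them above the line.

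Peaks without a partner were few in replicate 1. Of its 21 peaks at the 10 genes 20 had a partner (95.2%, against 69.4% of all its peaks), and of the 27 in replicate 2 18 did (66.7%, against 59.2%). The 1 peak left in replicate 1, at chr9:7543441-7543637 before Mmp8, had a fold of 4.55. A replicate 2 peak with a fold of 3.77 ended just before it, without overlap. The strongest without a partner in replicate 2 at Mmp8 and Mmp27 was chr9:7525891-7526377, with a fold of 7.67 from 16 fragments, and its nearest TSS was that of Mmp10. At Mmp13 it was chr9:7253398-7253570 (fold 6.77), and at Mmp14 chr14:54398611-54398732, in an intron of Slc7a7 (5.41). At Mmp9 and Timp2 the folds were 4.51 and 4.06. All of these were low beside the folds of the strongest shared regions, and the median summit of the 9 in replicate 2 held 10 fragments. The fold of 7.67 was nonetheless above the median of all replicate 2 peaks (6.77). The weakest shared region at the 10 genes had a fold of 4.96 in that replicate.

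To see which sequences lay under the summits, 12 short strings were searched on both strands within 100 bp of the mean summit. They were CEBP (TT, purine, pyrimidine, purine, pyrimidine, AA), PU.1 (GAGGAAGT), ETS (CAGGAAGT, which differs from it in the first letter), AP-1 (TGACTCA or TGAGTCA), RUNX (TGTGGTC or TGTGGTT), STAT5 (TTCNNNGAA), the E-box CACGTG, the nuclear receptor string AGGTCA, SMAD (GTCTGG), the SMAD palindrome GTCTAGAC, SMAD 5GC (GGCGC or GGCCG) and RBPJ (GTGGGAA). At least 1 string was present in 13 of the 18 windows, and in 72.9% of all shared regions.

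The PU.1 string, bound by the macrophage regulator PU.1, was in 4 of the 18 windows (22.2%, against 8.0% of all shared regions). Of these, 3 were at Mmp14: the Slc7a7 promoter, an Mrpl52 promoter region and the region past the 3′ end of Mmp14. In the other, at Mmp9, the string (164943186 to 164943193) lay past the end of the shared region. RUNX was also in 4 (22.2%, against 16.3%), and so was SMAD (22.2%, against 11.2%). The SMAD windows were the Mmp8 promoter, the Mmp13 region, the first Mmp19 region and the Slc7a7 promoter. CEBP, the most frequent string of all shared regions at 23.6%, was in 2 windows (11.1%), those of Mmp12 and Timp2. SMAD 5GC was in 2 (11.1%, against 10.8%), and AP-1, ETS and RBPJ were in 1 each (5.56%, against 8.91%, 5.62% and 4.14%). STAT5, the E-box, the nuclear receptor string and the SMAD palindrome were in none of the 18. If a count of 0 allows up to 3, the share could be up to 16.7%, a rough limit that treats the windows as independent. Over all shared regions these 4 were in 8.06%, 3.65%, 15.4% and 0.465%. With windows of 50 bp each side, PU.1 was in 1 of the 18 (5.56%, against 4.56% of all shared regions) and so was RUNX (5.56%, against 9.31%). SMAD was then in 2 (11.1%, against 5.83%), and CEBP in 1 (5.56%, against 15.5%). The shares of single strings thus depended on the window and differ from the background by few regions each, and no test was made of them.

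The median GC content of the 18 windows was 45.8% (33.8% to 56.2%), compared with 43.8% over all shared regions. None of the 18 was more than 50% repeat sequence, as were 4.13% of all shared windows. Promoter sequences of 8 of the 10 genes (RefSeq, GRCm38.p6, 250 bases before to 50 after the start) were searched in the same way. The PU.1 string was in those of Mmp8 and Mmp12, where 3.28% of 27025 promoters held it, and the AP-1 string in those of Mmp3 and Mmp13 (5.17% of promoters). RUNX was in those of Mmp13 and Mmp27 (9.45% of promoters), SMAD in that of Mmp8 (18.0%) and SMAD 5GC in those of Mmp14, Timp2 and Timp3 (48.4%). The other 7 strings were in none of the 8, and in 0.211% to 16.04% of all promoters. If a count of 0 allows up to 3, the share could be up to 37.5%, a rough limit that treats the promoters as independent. By the 1 kb upstream to 100 bp downstream limit, only the Mmp8 promoter had a peak in either list.

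Related genes were described from lists by the same rule. Of 15 other Mmp genes 3 had a shared region, where 39.1% of protein-coding genes did. Only Mmp24, a membrane-anchored MMP, had one in the gene body (chr2:155780015-155780217, intron 1), with folds of 4.22 and 5.41. Mmp17 and Mmp28, named after their values were seen, had regions within 50 kb with another gene's TSS closer. None of the other inhibitors Timp1, Timp4 and Reck had a shared region.

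Among 8 genes of MMP activation, docking and clearance, 7 had a shared region, all but Bsg, where 39.1% of protein-coding genes did. The list was chosen with earlier results of these data known, so the count is a description only. Plau, which encodes the urokinase that starts the plasmin cascade, had one in exon 11, with folds of 13.3 and 18.4, the stronger of its 2. Its receptor gene Plaur had 7 shared regions, the strongest at 22.7 and 31.6, and a weak one in intron 1 (4.22 and 4.96). Serpinb2, the gene of an inhibitor of urokinase, had 3, the strongest at 10.02 and 9.56, with one in intron 1 (3.63 and 4.56). Furin, whose protease activates MMP14, had 6, the strongest at 16.6 and 27.1, with one in its body, at the promoter of Gm44851 (3.58 and 9.48). Cd44, a docking receptor for MMP9 and MMP14, and Lrp1, which clears MMPs by endocytosis, each had 5 in the body, the strongest at 16.6 and 19 for Cd44 and at 16.6 and 20.8 for Lrp1. Of 6 matrix substrates (Eln, Col1a1, Col1a2, Col3a1, Col4a1 and Fn1) only Col4a1 had one, in intron 2, with folds of 18.8 and 33.4. That single region was stronger than all at the 10 genes but the Mmp8 exon 10 region.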

How the data were processed

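SMAD4 HT-ChIPmentation libraries of mouse AMs were analysed from the peak list of each of the 2 SMAD4 samples. The 2 input samples have no values of their own here. Replicates were numbered in accession order, which pairs no SMAD4 library with an input.

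Reads were trimmed by the authors (Cutadapt) and aligned to mm10 (Bowtie2). They removed duplicates and kept properly paired reads of high mapping quality. They called peaks per sample with MACS3 against input at a q-value limit of 0.05, without pooling replicates. Per peak the authors deposited a fold ratio (fragments stacked at the summit over control), a −log10 p-value, a −log10 q-value, the summit offset and a score. The score, the whole part of 10 times −log10 q, was not used. Reads and sequencing totals were not used here. As fold is fragments plus 1 over control plus 1, summit fragments were solved from fold and p. Over 99.9% of peaks gave a whole number within 0.001 in −log10 p. These few fragments limit the precision, and p and q describe a peak against input, not a difference between samples.

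Gene models were curated RefSeq transcripts of GRCm38.p6, the assembly that mm10 names (no peak end lay past a chromosome). Features were assigned in the order promoter, transcript end (100 bp upstream to 1 kb downstream), exon, intron, intergenic. The nearest gene had the closest TSS to the mean of the strongest summits. The members, gene lists and strings were chosen with earlier results of these data known. Named were all 10 members with their strongest shared region and those in promoter or body, the strongest unshared peak per gene and library, and listed genes with a shared region in promoter or body. Printed sequences were the summit windows of each member's strongest region, cut before untranslated parts. For the Mmp8 promoter 250 bases before the TSS were shown. A few items of the lists and sequences are not reported here. On simulated data 100 of 100 planted partner pairs and 200 of 200 pileups were recovered. The planted partners overlapped by construction. The pileups were made with the same formula at a single control level and solved by separate code. The recovery therefore checks the code only and says nothing of the real peaks. No test between groups was possible. Python 3.11.15, numpy 2.4.6, pandas 2.3.3, scipy 1.17.1 and samtools 1.23.1 were used.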

Additional observations from a re-analysis of the deposited data

How the results depend on the processing

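Counts depended most on what was taken as near a gene and on how peaks were paired. With the gene body alone, 5 shared regions at 3 genes (Mmp8, Mmp27 and Timp2) were counted, where 14.1% of protein-coding genes had one, and 5 and 6 peaks of replicates 1 and 2. With summits required within 100 bp of each other, 11 shared regions were left and 3 genes (Mmp8, Mmp9 and Mmp27) had one nearest to their TSS. Mmp12 and Mmp13 then had no shared region, as their summits lay 110 to 189 bp apart. With a promoter of 3 kb each side of a TSS, 4 genes (Mmp8, Mmp9, Mmp13 and Mmp27) had a shared region there, against 7.84% of protein-coding genes. Without replicate 1 the Mmp cluster held 11 peaks and without replicate 2 it held 9, in place of 7 shared regions. All other alternatives (distances of 25 and 100 kb, 50% reciprocal overlap, stricter q or fold limits and predicted transcripts) left these counts within 1.5 times. The number of windows with at least 1 string also stayed within 1.5 times under other windows, but some counts of single strings did not. Of 48 such values 40 did, and these include strings such as STAT5 that stayed at 0. With 50 bp each side, PU.1, RUNX, CEBP and SMAD 5GC were in 1 window each and SMAD in 2. The nuclear receptor string was in 1 window with 150 bp or without replicate 2, and the E-box in 1 with 150 bp. With 25 kb, 8 genes had a shared region against 28.1% of protein-coding genes, and with 100 kb 8 against 54.9%. With predicted transcripts included, no shared region had the Mmp14 TSS as its nearest. No paired analysis was possible because no result came from a test and the labels carry no replicate numbers. Depth limits the weak regions most, which rest on 10 to 20 fragments at a summit.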
